A study of Homo sapiens with 4 samples.

Results

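The solute carriers are the large group of membrane transport proteins whose gene symbols start with SLC. Described here are the 103 listed solute carrier genes outside the glutamate, glucose, amino acid exchanger, mitochondrial and SLC38 families, that is, all symbols built as SLC, a family number, A and a member number, except those that start with SLC1A, SLC2A, SLC3A, SLC7A, SLC25A or SLC38A. They were taken by symbol alone, with 1 transcript record kept for each (the one with the most counts on average over the 4 libraries), and they are 103 of the 11415 genes in the table. They fall into 33 families that carry ions, metals, lactate, nucleosides, vitamins, phosphate, osmolytes, peptides, nucleotide sugars and lipids.

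The RNA came from cultures of TK6, a human lymphoblastoid cell line that is heterozygous for thymidine kinase. The cells of the simulated microgravity group (2 libraries) were grown for 48 hours in vessels rotating at 12 rpm, which keeps the cells in constant free fall through the medium. The cells of the static control group (2 libraries) were grown for 48 hours in the same kind of vessel without rotation. Rotation also changes fluid flow, mixing and gas exchange, which cannot be told apart from the change in loading in these 2 groups, and both groups are a single cell line. The labels do not state that the replicates came from separate cultures, so the p-values measure the spread between these libraries, which may in part be technical.

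A solute carrier moves its substrate down a gradient or couples it to the gradient of sodium, protons or chloride, so the set of carriers decides what a cell can take up, release and store in its organelles. In lymphocytes, zinc and iron importers feed proliferation, lactate carriers release the end product of glycolysis together with a proton, and proton, bicarbonate and chloride carriers set pH and volume. Nucleoside and folate carriers supply nucleotide synthesis, and both are routes by which antimetabolite drugs enter cells.

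The 2 simulated microgravity libraries held 57481510 and 64497288 counts over the genes kept, against 60912001 and 62317294 counts in the 2 static control libraries. Of these, the 103 solute carrier genes took 230518 and 247818 in simulated microgravity, against 235538 and 242690 in static control, or 0.384% to 0.401% of each library. Values are given as CPM, counts relative to the library total, scaled between libraries by the TMM method of edgeR, and differences as log2 fold changes, simulated microgravity over static control, with the standard error (SE). The edgeR quasi-likelihood test was run on all 11415 genes, and a gene passed at a Benjamini-Hochberg false discovery rate (FDR, here the adjusted p) under 0.1. Of 7 B lineage marker genes all were listed, with summed levels of 2742 to 2891 CPM in simulated microgravity, against 2716 to 2783 CPM in static control. None of the 5 T cell markers or of the 5 erythroid and megakaryocyte markers was listed, ITGAM was the only myeloid marker of 5, and KRT8 and COL1A1 were the only epithelial and fibroblast markers of 6.

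None of the 103 solute carrier genes passed the FDR, while 126 of all 11415 genes did (1.1%), 27 of them higher (0.237% of all genes) and 99 lower (0.867%) in simulated microgravity. The smallest adjusted p in edgeR's quasi-likelihood test was 0.215, for SLC39A14. The authors' own edgeR analysis, at an FDR under 0.1, counted SLC39A14 among the upregulated genes. It was run over transcripts rather than over 1 record per gene. At an unadjusted p under 0.05 there were 8 solute carrier genes (7.77%), against 8.08% of all genes. DESeq2, limma-voom and edgeR's exact test also called 0 of them, and so did the quasi-likelihood test over all 235 records of these genes. Of the 64 listed genes in the solute carrier families left out here, 1 rose and 2 fell, and the difference between the 2 sets was not tested. In RNA from a whole culture, fewer cells that express a gene and less of its RNA per cell cannot be told apart.

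The differences were small and the error on most of them was narrow. The log2 fold changes ran from -0.38 to 0.29 with a median of 0.03, against a median of 0.00 over all genes, and 96 of the 103 were under 0.25 in size (93.2%, against 93.7% of all genes). The median SE was 0.09. The 95% interval of the fold change lay within 1.5-fold in both directions for 99 of the 103 genes (96.1%, against 94.8% of all genes), within 1.25-fold for 63, and within 2-fold for all 103. The 4 genes with wider intervals were SLC6A16, SLC6A20, SLC22A18 and SLC43A2.

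More of the solute carrier genes were on the higher than on the lower side. The log2 fold change was above 0 for 63 genes and below 0 for 40 (61.2% above 0, against 50.2% of all genes), and for 65 above 0 when scaled by library sizes only. The CPM of the 2 conditions did not overlap for 44 genes (42.7%, against 35.9% of all genes), of which 26 were higher (17.9% of all genes) and 18 lower (18.1% of all genes) in simulated microgravity. With 2 libraries in each group, an exact permutation test of 1 gene cannot give a two-sided p below 0.333. The lean to the higher side moved with single libraries, since the median log2 fold change of the 103 genes was -0.0030 without static control replicate 2 and 0.041 without simulated microgravity replicate 2.

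**Figure D1:**
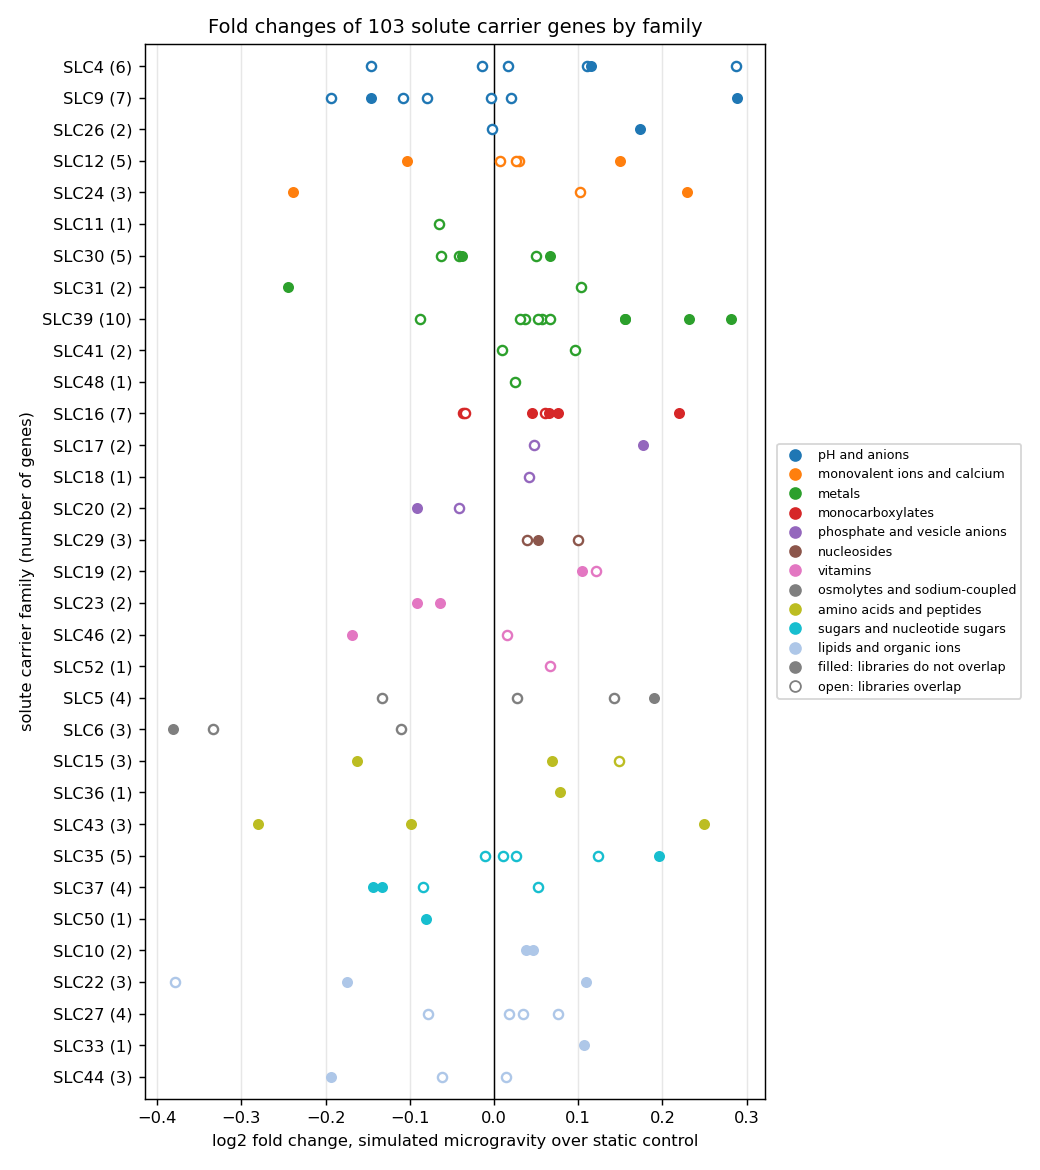
Log2 fold change of each of the 103 genes (x axis, simulated microgravity over static control) by solute carrier family (y axis, number of genes in parentheses), with colours for the class of substrate, filled points for the 44 genes whose libraries did not overlap between conditions and open points for the rest. All points lie between -0.38 and 0.29, SLC39 has 9 of 10 points on the higher side and the 3 points of SLC6 are all on the lower side, and none of the 103 passed the FDR.

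Metal carriers were the largest class, with 21 genes, and held the gene with the smallest p. SLC39A14 encodes ZIP14, which brings zinc, manganese and iron not bound to transferrin into the cytosol, and lies at chr8:22225050-22280249 on the plus strand (hg19, the build of the deposited table, starts counted from 1). It had 75.6 and 90.0 CPM in simulated microgravity, against 66.8 and 69.5 CPM in static control. The groups did not overlap, but the 2 simulated microgravity libraries lay further apart from each other than the lower of them did from static control. The means were 82.8 ± 10.2 CPM in simulated microgravity, against 68.1 ± 1.94 CPM in static control (SD, n = 2 each), with a log2 fold change of 0.28 (SE 0.09, 95% interval 0.10 to 0.46) and an adjusted p of 0.215 in edgeR. In edgeR's exact test the adjusted p was 0.109, while the authors, who tested transcripts, counted SLC39A14 as upregulated at an FDR under 0.1. Its 4 records, which share reads, gave log2 fold changes of 0.27 to 0.28 when all records were tested. Their smallest adjusted p was then 0.170 in edgeR's quasi-likelihood test.

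The SLC39 family of zinc importers had 10 listed genes, 9 with a log2 fold change above 0 and 1, SLC39A4, below 0, with a median of 0.06. Without overlap there were 4 higher and 0 lower, against 17.9% of all genes higher and 18.1% lower, and with 10 genes these counts are a description only. SLC39A10 encodes ZIP10, a zinc importer of the plasma membrane that supports B cell survival in mice, and had 66.5 and 69.7 CPM in simulated microgravity, against 58.5 and 63.8 CPM in static control (log2 fold change 0.16, SE 0.08, adjusted p 0.673 in edgeR). SLC39A11, for ZIP11, had 9.40 and 8.30 CPM in simulated microgravity, against 7.38 and 7.69 CPM in static control (0.23, SE 0.12, adjusted p 0.675 in edgeR). SLC39A3, for ZIP3, had 18.8 and 19.9 CPM in simulated microgravity, against 17.8 and 16.9 CPM in static control (0.16, SE 0.09, adjusted p 0.743 in edgeR). These 3 genes were higher in both libraries, by amounts that did not pass. The abundant importers differed less, with log2 fold changes of 0.07 for SLC39A6, 0.04 for SLC39A1 and 0.03 for SLC39A8, all with overlapping groups. SLC39A4, the zinc importer of the intestine, had 2.32 and 3.09 CPM in simulated microgravity, against 3.04 and 2.72 CPM in static control.

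Most members of the SLC30 family move zinc the other way, out of the cytosol into organelles or the medium. The 5 listed genes of this family had log2 fold changes of -0.06 to 0.07. SLC30A1 is the zinc exporter of the plasma membrane and a known target of the zinc-sensing factor MTF1. It had 8.73 and 8.24 CPM in simulated microgravity, against 9.45 and 8.27 CPM in static control, with overlapping groups and a log2 fold change of -0.06 (SE 0.12, 95% interval -0.31 to 0.18). SLC30A5, which loads zinc into the Golgi, had 98.1 and 97.7 CPM in simulated microgravity, against 90.7 and 96.2 CPM in static control (0.07, SE 0.07), and its 3 records gave 0.06 to 0.20 when all records were tested. SLC30A9, a zinc carrier of mitochondria, had 153 and 170 CPM in simulated microgravity, against 160 and 173 CPM in static control. The zinc-binding metallothioneins and MTF1 gave 3 listed genes of 8, and 0 passed. MT2A had 14.7 and 15.6 CPM in simulated microgravity, against 18.4 and 16.0 CPM in static control (-0.18, SE 0.10, adjusted p 0.706 in edgeR), while MT1X was at 0.11 and MTF1 at -0.08 on the log2 scale.

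The promoter of SLC30A1 is shown because it was the only 1 of 13 zinc carrier promoters in the RefSeq table (GRCh38.p14) with 2 matches to the core letters of the metal response element, the element bound by MTF1. The letters searched were TGCACNC and TGCGCNC on both strands, in windows of 250 bases before to 50 after the start of the gene. The matches start at -49 and +25 from the start of the gene. The bases before the start, at chr1:211579162-211579411 on the minus strand, are given 5′ to 3′ with the first match in capitals, read on the strand opposite to the core letters.
SLC30A1 promoter: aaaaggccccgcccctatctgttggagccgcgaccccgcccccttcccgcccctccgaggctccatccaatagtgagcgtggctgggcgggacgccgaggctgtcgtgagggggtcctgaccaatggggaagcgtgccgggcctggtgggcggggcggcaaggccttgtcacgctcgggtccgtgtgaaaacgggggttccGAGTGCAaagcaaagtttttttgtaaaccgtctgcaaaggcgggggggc
A match was found in 4 of the 13 zinc carrier promoters, in 29 of the 83 solute carrier promoters in the table (34.9%), in 29.3% of all 27305 promoters and in 39% of the 8181 promoters of genes listed in the count table. At least 2 matches were found in 6 of the 83 solute carrier promoters and in 8.59% of all promoters. SLC39A14 and SLC39A4 were not among the 13 zinc carrier promoters. The letters describe the window only, and no binding was measured.

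Among the other metal carriers, copper gave the second smallest p of all 103 genes. SLC31A1 encodes CTR1, the high-affinity copper importer, at chr9:115983808-116026772 on the plus strand. It had 30.6 and 32.3 CPM in simulated microgravity, against 34.1 and 40.5 CPM in static control. The groups did not overlap, and the widest gap was between the 2 static control libraries. The log2 fold change was -0.24 (SE 0.09, 95% interval -0.44 to -0.05, adjusted p 0.407 in edgeR). SLC31A2, for the related CTR2, had 3.82 and 2.61 CPM in simulated microgravity, against 3.19 and 2.77 CPM in static control. Of the exon bases of SLC31A2, 91.8% overlap FKBP15 on the opposite strand, and its CPM was 4.49% and 3.40% of that of FKBP15 in simulated microgravity, against 3.34% and 3.03% in static control. The part of FKBP15 reads in the SLC31A2 counts was not tested. SLC11A2 encodes DMT1, which brings iron across the membrane with protons, and had 27.8 and 26.3 CPM in simulated microgravity, against 28.9 and 27.7 CPM in static control (-0.07, SE 0.08). SLC41A3, of the magnesium family, was at 0.10 with overlapping groups. Of 6 genes for iron and copper partners, from the transferrin receptor TFRC to the copper pumps ATP7A and ATP7B, all were listed and 0 passed, and TFRC was at -0.06 (SE 0.08). The iron exporter SLC40A1 and the magnesium carrier SLC41A1 were not listed.

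**Figure D2:**
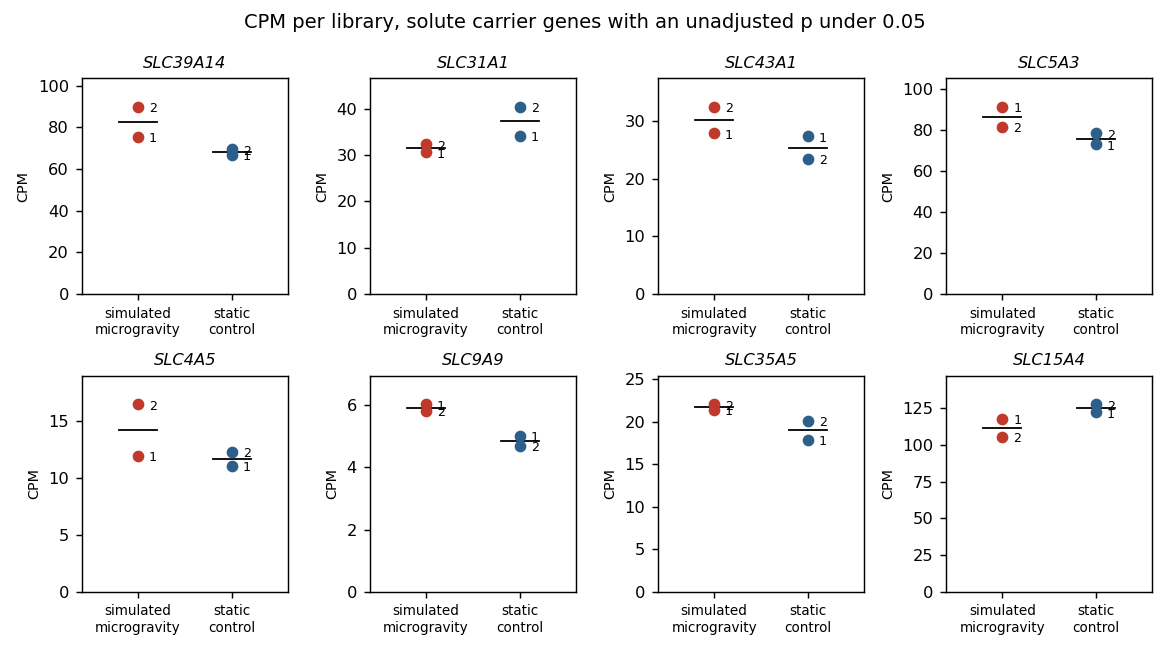
CPM in each library (y axis, from 0) of the 8 solute carrier genes with an unadjusted p under 0.05, simulated microgravity on the left and static control on the right, with the replicate number beside each point and a line at the mean of 2 libraries. The groups overlap for SLC4A5 only, the 2 simulated microgravity libraries of SLC39A14 are 75.6 and 90.0 CPM, and none of the 8 passed the FDR.

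Lactate and other monocarboxylates are carried by the SLC16 family, with 7 listed genes of which 5 were above 0 (50.2% of all genes) and 4 were higher without overlap (17.9% of all genes). The log2 fold changes ran from -0.04 to 0.22, and 0 of the 7 had an unadjusted p under 0.05 (8.08% of all genes). SLC16A1 encodes MCT1, the proton-coupled lactate and pyruvate carrier. It had 136 and 148 CPM in simulated microgravity, against 129 and 143 CPM in static control. The groups overlapped, and the log2 fold change was 0.06 (SE 0.08, 95% interval -0.10 to 0.22, adjusted p 0.951 in edgeR). SLC16A5, for MCT6, was the largest difference of the family, with 4.26 and 3.84 CPM in simulated microgravity, against 3.55 and 3.40 CPM in static control (0.22, SE 0.15, adjusted p 0.830 in edgeR). The lactate exporter SLC16A3 and the high-affinity carrier SLC16A7 were not listed.

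Among the genes whose products work with the lactate carriers, 1 enzyme passed the test. LDHA, the lactate dehydrogenase subunit that favours lactate formation, had 2305 and 2140 CPM in simulated microgravity, against 2692 and 2846 CPM in static control. All values in simulated microgravity were below those in static control, and LDHA fell, with a log2 fold change of -0.32 (SE 0.05, adjusted p 0.0055 in edgeR). The partner subunit LDHB was at -0.05 (SE 0.06). BSG and EMB, the glycoproteins that bring MCT proteins to the plasma membrane, were at 0.04 (SE 0.08) and 0.02 (SE 0.08). The difference between the 2 genes, LDHA and SLC16A1, was not tested. LDHA was the only 1 of 31 listed partner genes of these carriers, out of 40 looked for, that passed the FDR (1.1% of all genes), with 0 that rose.

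Nucleosides enter through the SLC29 family, whose 3 listed genes were all above 0, at 0.04 to 0.10. SLC29A1 encodes ENT1, the main equilibrative nucleoside transporter, through which adenosine and many nucleoside drugs pass. It had 224 and 221 CPM in simulated microgravity, against 219 and 210 CPM in static control, with no overlap and a log2 fold change of 0.05 (SE 0.08, 95% interval -0.11 to 0.22, adjusted p 0.968 in edgeR). The interval allows a difference of at most 1.25-fold in either direction. SLC29A2, for ENT2, had 59.8 and 52.2 CPM in simulated microgravity, against 59.5 and 49.5 CPM in static control, with replicates further apart than the conditions. Inside the cell, nucleosides are phosphorylated by salvage kinases, and of 6 salvage genes, all listed, 0 passed. TK2, the mitochondrial thymidine kinase, had 19.8 and 18.1 CPM in simulated microgravity, against 23.2 and 23.0 CPM in static control (-0.29, SE 0.09, adjusted p 0.212 in edgeR). TK1, the cytosolic thymidine kinase, was at 0.12 (SE 0.09).

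Carriers of bicarbonate, protons and other anions set the pH of the cytosol and of organelles, and their 15 genes were split, with 7 above 0 and 8 below (9 and 6 when scaled by library sizes only). In the SLC9 family of sodium and proton exchangers, 5 of 7 genes were below 0 (4 when scaled by library sizes only). SLC9A9 encodes NHE9, an exchanger of endosomes, at chr3:142984064-143567373 on the minus strand. It had 6.03 and 5.82 CPM in simulated microgravity, against 5.01 and 4.69 CPM in static control. The replicates were close and the groups apart, with a log2 fold change of 0.29 (SE 0.13, 95% interval 0.01 to 0.56, adjusted p 0.582 in edgeR). SLC9A8, an exchanger of the Golgi, had 33.3 and 31.7 CPM in simulated microgravity, against 37.9 and 34.0 CPM in static control (-0.15, SE 0.09, adjusted p 0.751 in edgeR). SLC9A7, of the trans-Golgi network, was at -0.08 (SE 0.08). SLC9A3R1 shares the symbol but encodes NHERF1, a scaffold protein rather than a carrier, and was at 0.02 (SE 0.08). Being taken by symbol, it is counted among the 7 SLC9 genes and the 15 genes above.

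In the SLC4 family of bicarbonate carriers, 4 of 6 genes were above 0. SLC4A7, for the sodium and bicarbonate cotransporter NBCn1, had 116 and 116 CPM in simulated microgravity, against 109 and 120 CPM in static control (0.02, SE 0.07). SLC4A1AP encodes an adaptor protein that is not a carrier, with 54.1 and 51.6 CPM in simulated microgravity, against 47.2 and 50.4 CPM in static control (0.11, SE 0.08). It is counted among the 6 SLC4 genes by symbol. Of the SLC26 anion exchangers, SLC26A2, the sulfate carrier that feeds the sulfation of proteoglycans, had 13.0 and 12.6 CPM in simulated microgravity, against 10.6 and 12.1 CPM in static control (0.17, SE 0.10, adjusted p 0.771 in edgeR). SLC26A6 had 61.2 and 41.8 CPM in simulated microgravity, against 54.7 and 48.4 CPM in static control. Its 2 simulated microgravity libraries stood on either side of both static control libraries, and the log2 fold change was -0.00 (SE 0.12).

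SLC4A5, for the bicarbonate cotransporter NBCe2, was among the genes with the lowest p, and it shares exons with another gene. It lies at chr2:74443369-74570534 on the minus strand and had 11.9 and 16.4 CPM in simulated microgravity, against 11.0 and 12.3 CPM in static control. The groups overlapped, and the log2 fold change was 0.29 (SE 0.13, adjusted p 0.561 in edgeR). Of its exon bases 20.8% overlap MTHFD2, a mitochondrial folate enzyme on the opposite strand, and 58.9% overlap an unnamed gene on the same strand (GENCODE v44 on GRCh37). MTHFD2 had 324 and 443 CPM in simulated microgravity, against 311 and 330 CPM in static control (0.26, SE 0.11, adjusted p 0.546 in edgeR). The CPM of SLC4A5 was 3.69% and 3.71% of that of MTHFD2 in simulated microgravity, against 3.56% and 3.71% in static control. The order of the libraries was the same for both genes. The sources do not state that reads were counted by strand, and the part of MTHFD2 reads in the SLC4A5 counts was not tested.

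Chloride carriers of the SLC12 family control cell volume, and 4 of the 5 listed genes were above 0. SLC12A2 encodes NKCC1, which takes up sodium, potassium and chloride when a cell shrinks, and had 63.2 and 64.7 CPM in simulated microgravity, against 65.5 and 71.9 CPM in static control (-0.10, SE 0.08, adjusted p 0.855 in edgeR). The groups did not overlap, and it did not pass. OXSR1, a kinase that phosphorylates cotransporters of this family, had 123 and 118 CPM in simulated microgravity, against 137 and 141 CPM in static control (-0.20, SE 0.07, adjusted p 0.322 in edgeR), and its upstream kinase WNK1 was at -0.04 (SE 0.08). Of 3 genes of the sodium pump, which maintains the gradient that many carriers use, 0 passed, and ATP1B1 was at 0.06 and ATP1B3 at -0.01.

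The SLC24 family exchanges sodium for calcium and had 3 listed genes. SLC24A6, now named SLC8B1, encodes the mitochondrial sodium and calcium exchanger, and had 6.91 and 6.43 CPM in simulated microgravity, against 6.38 and 5.00 CPM in static control (0.23, SE 0.14, adjusted p 0.780 in edgeR). SLC24A1, first known from rod photoreceptors, had 6.40 and 5.30 CPM in simulated microgravity, against 7.30 and 6.50 CPM in static control (-0.24, SE 0.13, adjusted p 0.734 in edgeR), and its 2 records gave -0.24 and -0.09 when all records were tested. SLC24A5, a carrier of melanosomes, was at 0.10, and 76.2% of its exon bases overlap MYEF2 on the opposite strand, which was at 0.08.

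Osmolyte carriers take up inositol and taurine when the medium is hypertonic. The inositol and taurine importers lay on opposite sides of 0, and neither passed the FDR. SLC5A3 encodes SMIT1, the sodium-coupled inositol importer, at chr21:35445870-35478561 on the plus strand. It had 91.2 and 81.3 CPM in simulated microgravity, against 73.0 and 78.3 CPM in static control. The groups did not overlap, and the log2 fold change was 0.19 (SE 0.08, 95% interval 0.02 to 0.36, adjusted p 0.529 in edgeR). SLC6A6, the taurine importer, had 60.4 and 51.4 CPM in simulated microgravity, against 61.1 and 59.5 CPM in static control (-0.11, SE 0.09, adjusted p 0.865 in edgeR). Its groups overlapped, and it was at 0.0023 without simulated microgravity replicate 2. All 3 listed genes of the SLC6 family were below 0, 2 of them near the lowest levels listed. SLC6A16, an orphan carrier, had 1.86 and 1.40 CPM in simulated microgravity, against 2.32 and 1.92 CPM in static control (-0.38, SE 0.21). SLC6A20, a proline carrier, had 1.62 and 1.25 CPM in simulated microgravity, against 1.99 and 1.61 CPM in static control (-0.33, SE 0.22).

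Families SLC19, SLC23, SLC46 and SLC52, grouped as vitamin carriers, had 7 listed genes, 4 above 0 and 3 below, between -0.17 and 0.12. SLC19A1, the reduced folate carrier through which methotrexate enters, had 12.8 and 15.3 CPM in simulated microgravity, against 13.9 and 12.0 CPM in static control (0.12, SE 0.11). SLC46A1, the proton-coupled folate carrier, had 14.5 and 14.4 CPM in simulated microgravity, against 17.0 and 15.5 CPM in static control (-0.17, SE 0.09, adjusted p 0.734 in edgeR). Of the exon bases of SLC46A1, 62.4% overlap SARM1 on the opposite strand, which was at -0.18 (SE 0.09), and the part of SARM1 reads was not tested. SLC19A2, the thiamine importer, had 15.0 and 15.7 CPM in simulated microgravity, against 14.0 and 14.6 CPM in static control (0.10, SE 0.09). Both listed SLC23 genes, for ascorbate carriers, were lower without overlap (18.1% of all genes), and with so few genes this is a description only. SLC23A2 had 24.7 and 22.9 CPM in simulated microgravity, against 25.4 and 25.2 CPM in static control (-0.09, SE 0.08, adjusted p 0.904 in edgeR). Of 5 genes for the use of folate, thiamine and riboflavin, all were listed and 0 passed.

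Phosphate is taken up by the SLC20 family, whose 2 listed genes were below 0. SLC20A1, for the phosphate importer PiT1, had 61.0 and 63.1 CPM in simulated microgravity, against 63.3 and 68.9 CPM in static control (-0.09, SE 0.08, adjusted p 0.889 in edgeR). Of the vesicle carriers, SLC17A5, which exports sialic acid from lysosomes, had 9.75 and 10.7 CPM in simulated microgravity, against 8.51 and 9.61 CPM in static control (0.18, SE 0.11, adjusted p 0.806 in edgeR). SLC17A9, which loads ATP into vesicles, had 174 and 146 CPM in simulated microgravity, against 164 and 145 CPM in static control (0.05, SE 0.09). In both conditions replicate 1 of SLC17A9 was well above replicate 2.

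Grouped as peptide and amino acid carriers, families SLC15, SLC36 and SLC43 gave 3 of 7 genes higher and 3 lower without overlap, against 17.9% and 18.1% of all genes. The 3 lower genes include SLC43A3, counted here by family. SLC43A1 encodes LAT3, a carrier of large neutral amino acids, at chr11:57252004-57283192 on the minus strand. It had 27.9 and 32.6 CPM in simulated microgravity, against 27.4 and 23.5 CPM in static control. The lowest simulated microgravity library and the highest static control library nearly met, and the log2 fold change was 0.25 (SE 0.10, 95% interval 0.05 to 0.45, adjusted p 0.435 in edgeR). SLC43A2, for LAT4, carries similar substrates and lay on the other side, with 4.26 and 4.24 CPM in simulated microgravity, against 5.82 and 4.51 CPM in static control (-0.28, SE 0.15, adjusted p 0.709 in edgeR). SLC43A3, a purine nucleobase carrier, had 279 and 268 CPM in simulated microgravity, against 289 and 298 CPM in static control (-0.10, SE 0.08, adjusted p 0.889 in edgeR). SLC15A4, a histidine and peptide carrier of lysosomes needed for signalling by nucleic acid sensing Toll-like receptors, lies at chr12:129277739-129308541 on the minus strand. It had 118 and 105 CPM in simulated microgravity, against 122 and 128 CPM in static control. The groups did not overlap, and the log2 fold change was -0.16 (SE 0.08, adjusted p 0.597 in edgeR).

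Carriers of nucleotide sugars and sugar phosphates had 10 listed genes, 5 above 0 and 5 below. SLC35A5, a Golgi nucleotide sugar carrier at chr3:112280857-112303284 on the plus strand, had 21.4 and 22.1 CPM in simulated microgravity, against 17.9 and 20.1 CPM in static control. The groups did not overlap, and the log2 fold change was 0.20 (SE 0.09, 95% interval 0.01 to 0.38, adjusted p 0.584 in edgeR). SLC35A3, which takes UDP-N-acetylglucosamine into the Golgi, was at 0.03 (SE 0.08). SLC37A4, the glucose 6-phosphate carrier of the endoplasmic reticulum, had 51.4 and 46.3 CPM in simulated microgravity, against 55.0 and 52.9 CPM in static control (-0.14, SE 0.08, adjusted p 0.743 in edgeR). SLC37A2, a sugar phosphate carrier of the same family, had 77.7 and 71.6 CPM in simulated microgravity, against 82.8 and 80.9 CPM in static control (-0.13, SE 0.08, adjusted p 0.746 in edgeR). Of the 4 SLC37 genes 3 were below 0. SLC50A1, a glucose carrier, had 91.0 and 90.1 CPM in simulated microgravity, against 98.6 and 92.9 CPM in static control (-0.08, SE 0.07).

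Carriers of lipids and organic ions had 13 listed genes with a median log2 fold change of 0.02. Of these, 0 had an unadjusted p under 0.05, against 8.08% of all genes. The groups overlapped for all 4 SLC27 genes for fatty acid uptake, while 35.9% of all genes had no overlap. SLC27A4, the most abundant of the 4, was at 0.02 (SE 0.11). SLC33A1, which takes acetyl-CoA into the endoplasmic reticulum, had 69.5 and 70.9 CPM in simulated microgravity, against 63.4 and 67.0 CPM in static control (0.11, SE 0.08, adjusted p 0.849 in edgeR). The choline carrier SLC44A1 was at 0.01 (SE 0.08) and its relative SLC44A2 at -0.06 (SE 0.08). SLC22A18, now named SLC67A1, is counted here by its older symbol. It had 2.18 and 1.06 CPM in simulated microgravity, against 2.22 and 1.97 CPM in static control. Only simulated microgravity replicate 2 stood apart, and the log2 fold change was -0.38 (SE 0.26, adjusted p 0.830 in edgeR).

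Levels between genes were compared as CPM per kb of exon, with exon lengths from the GENCODE transcript that best matched each record. SLC43A3 had 107 and 102 CPM per kb in simulated microgravity, against 110 and 114 CPM per kb in static control, the highest level of the 103. SLC29A1 followed with 107 and 106 CPM per kb in simulated microgravity, against 105 and 101 CPM per kb in static control, and the ranges of these 2 genes overlap. After a gap came SLC50A1 with 74.7 and 74.0 CPM per kb in simulated microgravity, against 81.0 and 76.2 CPM per kb in static control, and SLC30A9 with 69.2 and 76.7 CPM per kb in simulated microgravity, against 72.3 and 77.9 CPM per kb in static control, again overlapping each other. The single genes with the highest RNA levels per exon length thus encode carriers for purine bases, nucleosides, glucose and zinc. SLC17A9 averaged 60.7 CPM per kb over the 4 libraries, SLC15A4 43.0, SLC39A1 37.2 and SLC16A1 37.1, and the last 2 do not differ beyond the spread of their libraries. The same-strand overlap with unnamed GENCODE genes covers 23% of the exon bases of SLC43A3, 81.5% of those of SLC39A1 and 87.8% of those of SLC33A1. In all, 37 of the 103 genes share exon bases with another gene on either strand, 13 of them at least 20%.

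**Figure D3:**
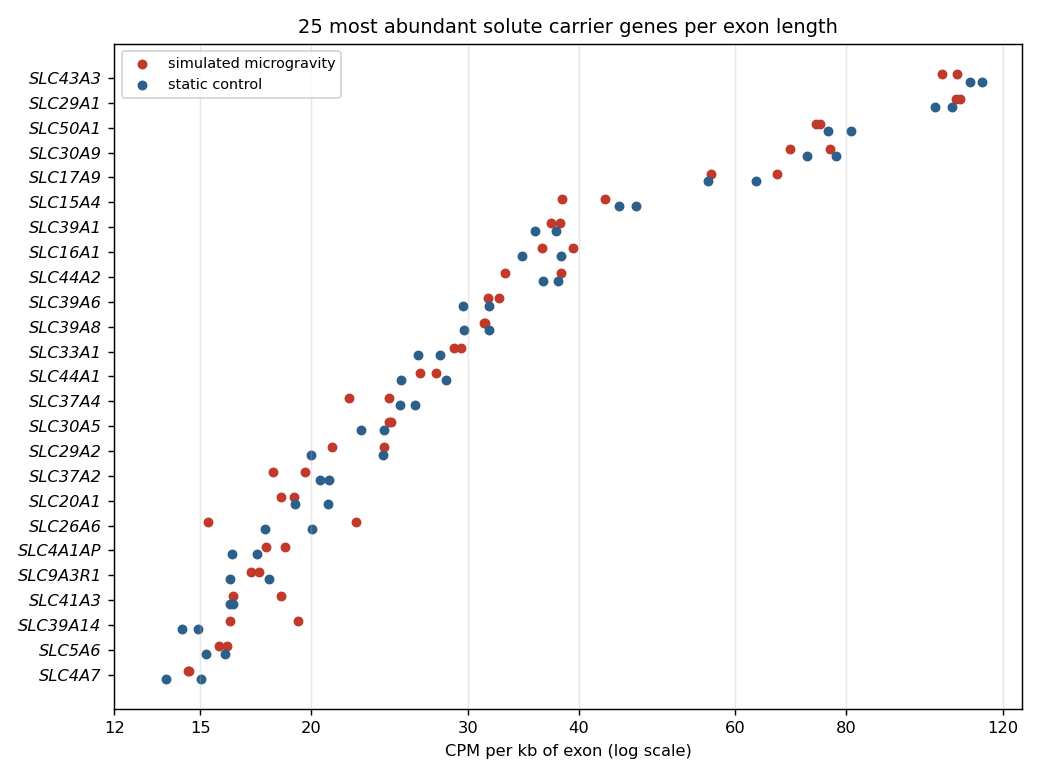
CPM per kb of exon (x axis, log scale) in each library for the 25 solute carrier genes with the highest mean, simulated microgravity in red above static control in blue. SLC43A3 and SLC29A1 lie above 100 CPM per kb in all 4 libraries, and SLC15A4 and SLC39A14 are among the genes whose 2 colours do not overlap.

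Which of these genes passed depended on the libraries. Each library was left out in turn, and the library that remained alone in its group was then assumed to vary like the other group. Without simulated microgravity replicate 1, 6 of the 103 genes passed, against 877 of all genes (7.68%). SLC39A14 was then at 0.40 (SE 0.08, adjusted p 9.22e-05 in edgeR), SLC43A1 at 0.36 (SE 0.10, adjusted p 0.00795 in edgeR) and SLC4A5 at 0.50 (SE 0.11, adjusted p 0.00048 in edgeR). On the lower side were SLC15A4 at -0.24 (SE 0.07, adjusted p 0.0264 in edgeR), SLC26A6 at -0.30 (SE 0.10, adjusted p 0.0354 in edgeR) and SLC22A18 at -0.98 (SE 0.26, adjusted p 0.00606 in edgeR). All 6 comparisons rest on simulated microgravity replicate 2 alone. Without simulated microgravity replicate 2, SLC5A3 passed at 0.27 (SE 0.08, adjusted p 0.067 in edgeR), against 212 of all genes (1.86%), and SLC39A14 was at 0.15. Without static control replicate 1 or replicate 2, 0 of the 103 passed edgeR's test, against 70 (0.613%) and 110 (0.964%) of all genes. No gene of the 103 passed under more than 1 of these 4 omissions.

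**Figure D4:**
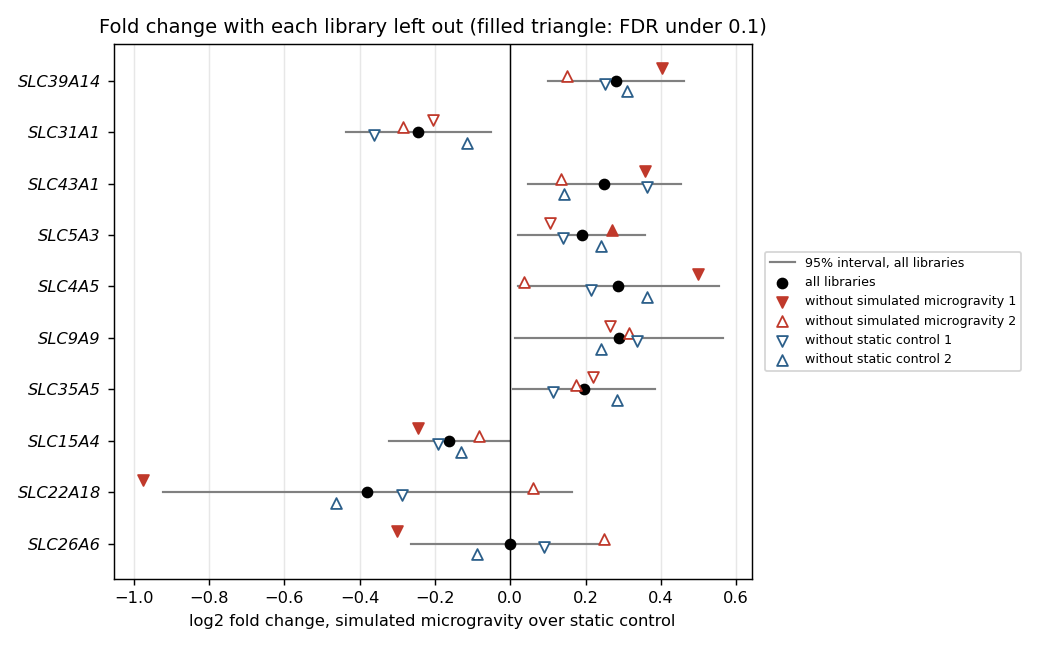
Log2 fold change (x axis) of the 8 genes with an unadjusted p under 0.05, SLC22A18 and SLC26A6 with all 4 libraries (black, with the 95% interval) and with each library left out (triangles, filled where the FDR was under 0.1). Without simulated microgravity replicate 1, SLC22A18 moved to -0.98 and SLC4A5 to 0.50, and SLC26A6 lay at -0.30 or 0.25 according to which simulated microgravity library was left out.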

How the data were processed

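The members, the lists of partner genes and the naming rule were chosen with earlier results of these data known. RNA was sequenced from 4 TK6 libraries. Alignment to hg19 was done by the authors with TopHat (TopHat2 2.0.8 in the processing notes, another version in the methods). Multiply mapped reads were dropped, Bamutils gave the count of each RefSeq record, and edgeR was used to compare the conditions. The counts deposited by the authors are whole numbers that were not normalized. The deposited CPM, log2 and p-value columns of the authors hold their normalized levels, fold changes and tests, and were not used. Records of 1 gene share reads, so 1 record per symbol was kept.

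Testing used edgeR 4.0.16 in R 4.3.3 (TMM, filterByExpr, which removed 0 genes, and the quasi-likelihood test) over 11415 genes at an FDR under 0.1. The biological coefficient of variation was 6.77%. Replicates differed by more than counting noise (chi-square per degree of freedom 22.4 in simulated microgravity and 19.6 in static control), so none was counted as a duplicate. The alternatives were an FDR under 0.05, DESeq2 size factors, library sizes only, a mean count of at least 500, no filter, DESeq2 1.42.0, limma-voom (limma 3.58.1), edgeR's exact and robust tests, the record listed first, all records, a replicate block, and each library left out.

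Genes named were any past the FDR, the 8 rises and 8 falls with the smallest p among those without overlap and a mean count of at least 50, the most abundant gene of each family with at least 2 listed genes, a fixed list, and symbols that are not carriers. The rule gave 47 listed genes, and some of its results are not reported here. SLC4A5, SLC22A18, SLC6A20, SLC31A2, SLC18A2, SLC9A8, SLC26A2, SLC24A6, SLC33A1, SLC50A1, SLC17A5, SLC30A5, SLC44A1, SLC39A1, SLC39A8 and SLC39A4 were named after their values were seen, and the promoter shown was chosen after the search. Promoters of 83 of the 103 genes were in the RefSeq table. The hypoxia response element core (ACGTG or GCGTG) was found in 54 of them (65.1%), in 48.4% of all promoters and in 64.7% of those of listed genes.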

Additional observations from a re-analysis of the deposited data

How the results depend on the processing

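Among the tests run here, the count of solute carrier genes past the FDR stayed at 0 of 103 under each alternative apart from leaving out a library, where it ranged from 0 to 6 (6 without simulated microgravity replicate 1 and 1 without simulated microgravity replicate 2). The count over all genes, 126, was 85 to 188 under those alternatives and ranged from 70 (without static control replicate 1) to 877 (without simulated microgravity replicate 1) with a library left out, with 212 without simulated microgravity replicate 2. The median log2 fold change of the 103 genes, 0.03, ranged from -0.0030 (without static control replicate 2) to 0.041, with 0.0079 without simulated microgravity replicate 1. With the replicate block 96 genes and 0 solute carriers passed. The deviations of same-numbered libraries correlated at 0.0878 over all genes and at 0.242 over the 103, and since neither the labels nor 2 pairs establish a pairing, the numbers were not treated as one. With library sizes only, SLC26A6 was at 0.0085, on the other side of 0. Of the 61 solute carrier genes named, 39 kept their sign under every alternative and 22 changed it when a library was left out. Those above 0 with all libraries ranged over SLC16A1 (-0.011 to 0.14), SLC17A9 (-0.079 to 0.17), SLC18A2 (-0.055 to 0.14), SLC19A1 (-0.011 to 0.24), SLC24A5 (-0.0091 to 0.21), SLC27A4 (-0.13 to 0.19), SLC29A2 (-0.088 to 0.18), SLC31A2 (-0.19 to 0.36), SLC35A3 (-0.060 to 0.12), SLC39A1 (-0.0030 to 0.078), SLC39A8 (-0.015 to 0.078), SLC44A1 (-0.067 to 0.10), SLC46A3 (-0.067 to 0.097), SLC4A7 (-0.049 to 0.085) and SLC9A3R1 (-0.051 to 0.094). Those below 0 with all libraries ranged over SLC22A18 (-0.98 to 0.061), SLC26A6 (-0.30 to 0.25), SLC30A1 (-0.16 to 0.037), SLC30A9 (-0.12 to 0.032), SLC39A4 (-0.31 to 0.10), SLC44A2 (-0.17 to 0.041) and SLC6A6 (-0.23 to 0.0023). The cause was not tested. Each of the 103 genes had at least 68 counts in every library, and n = 2 per condition limits the error estimate.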
